A study of Mus musculus with 12 samples.

Results

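The change between 12 h and 24 h of estradiol in C10 cells was described from 4 of the 12 arrays of the study, 2 of C10 given beta-estradiol for 24 h and 2 of C10 given it for 12 h. C10 is a mouse line that carries C/EBPα in a form that can be switched on, and the series title names the conversion of a B cell line into macrophages as its subject. All 4 samples thus shared the line, the introduced factor and the hormone, and differed in the hours of treatment. The neighbouring steps used C10 at 3 h and at 48 h of estradiol, 2 arrays each. C10 given ethanol as vehicle and HAFTL, a Ha-ras-transformed line of fetal liver origin that also received estradiol, had 2 arrays each. Those 4 arrays entered only the normalisation, the choice of probe set per gene, the filter on dim signals and the shared estimate of spread. The sources used here do not say whether C10 is a single clone, nor how long vehicle C10 and HAFTL were treated. No label states that the 2 arrays of a group stem from separate cultures. The p-values therefore cover only the spread between these samples, and this spread may be technical.

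C/EBPα is a transcription factor of granulocytes and macrophages that can also stop cell division. B cell precursors carry a surrogate light chain and the Igα and Igβ signalling chains on their surface, and they divide fast. Macrophages carry receptors for Csf1, for antibody Fc parts and for microbial products. Type I interferons signal through the receptor Ifnar1 with Ifnar2 and a complex that includes Stat2 and Irf9, and this complex binds the interferon-stimulated response element (ISRE) in promoters of antiviral genes. E2F factors bind promoters of DNA replication genes, and the DREAM and B-Myb complexes bind a cell cycle homology region (CHR) in promoters of mitotic genes.

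Of 11696 genes tested, 2611 (22.3%) were higher and 2702 (23.1%) lower at 24 h than at 12 h, 45.4% in either direction (limma with Benjamini-Hochberg adjustment over all genes tested, adjusted p below 0.05). The change reached 2-fold in 1080 (9.23%) of those higher and 881 (7.53%) of those lower, again as a share of all genes tested. Antiviral genes of the interferon response and genes of macrophages were among the steepest rises, and genes of DNA replication among the steepest falls. Signals are normalised intensities with a floor of 16, and the filter level was a signal of 74.6. Changes are log2 differences, 24 h minus 12 h, with the standard error of the fit (SE, n = 2 per group). Where both arrays of a group were at or under the filter level, the change is stated as a lower bound (at least N-fold), which sets the other group's mean against that level. Of the called genes, 218 higher and 116 lower ones carry such a bound. A further 629 tested genes were at or under the level in all 4 arrays, and passed the filter through other arrays.

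**Figure D1:**
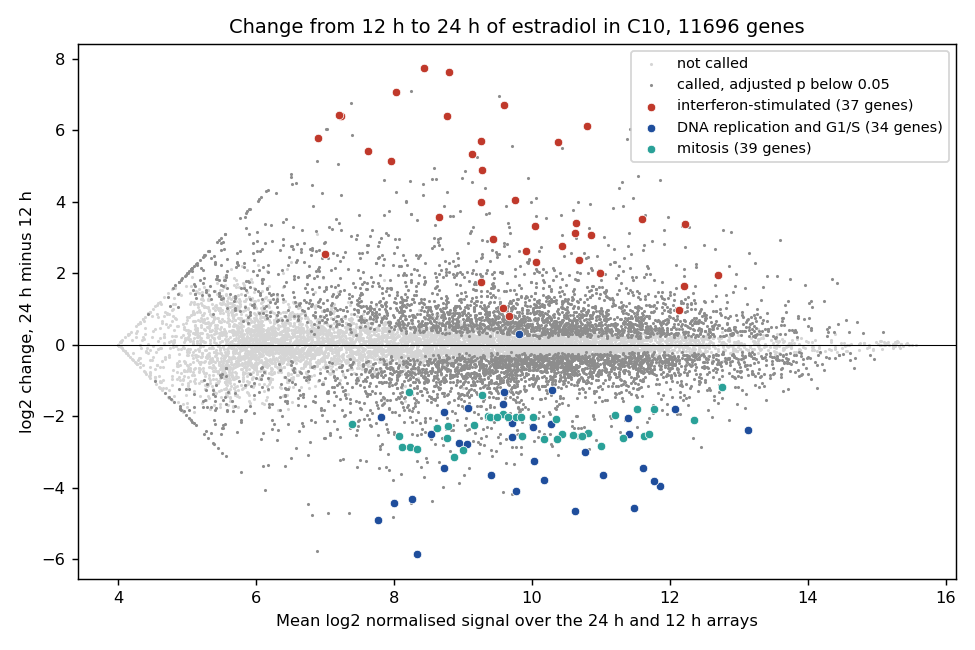
Each point is a gene, with its mean log2 normalised signal over the 24 h and 12 h arrays on the x axis and its log2 change, 24 h minus 12 h, on the y axis. The 37 interferon-stimulated genes (red) all lie above 0, and the DNA replication genes (blue) and mitosis genes (green) lie below it, except Tyms at 0.31.

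Measures of RNA quality overlapped between the 2 times. Pearson correlations across genes, which are not independent replicates, were 0.978 between the 24 h arrays and 0.979 between the 12 h arrays. The ratio of 5′ to 3′ signal of Actb, which falls as RNA degrades, was 0.838 and 0.804 at 24 h, against 0.801 and 0.848 at 12 h. The poly-A spike-in probe sets, of RNA added during preparation, had mean log2 signals of 7.81 and 8.06 at 24 h, against 7.60 and 7.44 at 12 h. Scaled to them instead, the median change of all genes was -0.43 in place of -0.01, and 501 genes (4.18%) were higher and 1151 (9.59%) lower. Higher genes then made up 30.3% of the calls, against 49.1%. The balance between rises and falls thus rested on the scaling, and the counts of each gene list under this scaling stand beside the main ones. Spike-in means also differed between duplicates, most at 48 h (8.18 and 7.14), and this difference enters the shared spread under that scaling. All calls under it were of 2-fold or more. Whether a lost call reflects this spread or a smaller change was not tested. List counts are to be read against the shares of all genes given above. In RNA from a whole culture, fewer cells of a type and less RNA per cell cannot be told apart.

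Interferon-stimulated genes had the highest median of the 30 lists. Of 40 listed genes, 37 had a usable probe set, and all 37 of these were tested and rose, with a median change of 3.51, against -0.01 over all genes. Under spike-in scaling 32 of the 37 rose, with a median of 3.58 above that of all genes. Their summed signal was 168471 and 170887 at 24 h, against 20241 and 20025 at 12 h. In 9 of the 37 genes both 12 h arrays were under the filter level, so that the filter was passed through other arrays only.

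Oasl2, which encodes a 2′-5′-oligoadenylate synthetase-like protein of the antiviral response, had signals of 6253 and 6314 at 24 h, against 36.2 and 27.6 at 12 h. Mx1, a dynamin-like GTPase that blocks influenza viruses, had 4788 and 5364 at 24 h, against 28.6 and 19.8 at 12 h. Both were dim in each 12 h array and bright in each 24 h array, at least 84.2-fold higher for Oasl2 (adjusted p = 6.3e-05) and at least 67.9-fold higher for Mx1 (adjusted p = 3.5e-05). Rsad2 encodes viperin, an enzyme that makes a chain-terminating nucleotide, and its signals were 3849 and 4186 at 24 h, against 34.2 and 65.4 at 12 h. It was at least 53.8-fold higher (adjusted p = 4.0e-06), and all of its 3 probe sets tested were called higher. Rtp4 had signals of 3123 and 2917 at 24 h, against 31.3 and 16 at 12 h, at least 40.4-fold higher (adjusted p = 8.5e-06). Ifit1, which binds viral RNA that lacks a host cap, was at least 19.9-fold higher, with signals of 1403 and 1567 at 24 h, against 51.5 and 34.2 at 12 h.

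Among members measured in all 4 arrays, Ifi202b, a sensor-family gene of the p200 cluster, had the largest rise, 6.13 ± 0.15 (adjusted p = 3.7e-07), with signals of 14278 and 15434 at 24 h, against 251 and 180.1 at 12 h. Oas2, a 2′-5′-oligoadenylate synthetase that activates RNase L, rose by 5.70 ± 0.30 (adjusted p = 5.5e-06), with signals of 4309 and 4533 at 24 h, against 79.9 and 90.4 at 12 h. Ifitm3, a membrane protein that hinders viral entry, rose by 5.66 ± 0.69 (adjusted p = 3.8e-04), with signals of 9444 and 9524 at 24 h, against 174 and 202 at 12 h. The 24 h arrays stood far above the 12 h arrays in each of these genes. Ifit3 rose by 5.33 ± 0.37 and Oasl1 by 4.90 ± 0.16. Usp18, a protease that removes the ubiquitin-like Isg15, had signals of 7730.1 and 8072 at 24 h, against 85.6 and 65.7 at 12 h. Only 1 of its 12 h arrays was under the filter level, so its fitted change of 6.72 ± 0.50 is uncertain. The Ifitm, Oas and Ifit genes belong to families whose probe sets may detect related transcripts. The smallest rises were those of Gbp3 (0.79), Ifi47 (0.98) and Trim21 (1.04), chosen for their rank after their values were seen.

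The largest rises and bounds of the whole table also held these 3 genes, which are not in the list. Ifitm1, a relative of Ifitm3, had signals of 23054 and 21429 at 24 h, against 442 and 261 at 12 h, and rose by 6.03 ± 0.28 (adjusted p = 3.1e-06). Slfn1, a Schlafen family gene linked to arrest of lymphocyte growth, was at the floor in both 12 h arrays, with signals of 1667 and 1776 at 24 h, against 16 and 16 at 12 h. It was at least 23.1-fold higher (adjusted p = 5.3e-09). Lgals3bp, a secreted glycoprotein that binds galectin-3, rose by 4.68 ± 0.19, with signals of 2559 and 2587 at 24 h, against 116 and 87.3 at 12 h.

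The promoters of the list held the letters of the ISRE more often than promoters at large. RefSeq promoter windows of GRCm38.p6, from 250 bases before to 50 after the gene start, were listed for 27 of the 37 genes, in 32 windows. The ISRE-like letters, GAAA followed by any 2 bases and another GAAA on either strand, occurred in 14 of the 32 windows (43.8%), and in 3.44% of all 32851 windows. A match describes letters in the window and is not shown to be a bound site. Nearly all members of this list and of the replication and mitosis lists below moved the same way. The shares therefore describe the lists, and whether the letters go with the change was not tested. Rsad2 and Ifitm3, members with strong rises, are shown as examples. Examples were drawn only from members with a match, and Mx1, Oasl2, Rtp4, Usp18 and Mx2, with larger fitted changes than Rsad2, were passed over. Further members rank between Rsad2 and Ifitm3 and are not shown, among them Oas3, which has a match. The letters in Rsad2 start 120 bases before the gene start. Ifitm3 has 2 matches, the nearer beginning 3 bases into the transcript. Both genes lie on the minus strand, at chr12:26456403-26456702 and chr7:141010695-141010994, and capitals mark the matches on either strand.
Rsad2: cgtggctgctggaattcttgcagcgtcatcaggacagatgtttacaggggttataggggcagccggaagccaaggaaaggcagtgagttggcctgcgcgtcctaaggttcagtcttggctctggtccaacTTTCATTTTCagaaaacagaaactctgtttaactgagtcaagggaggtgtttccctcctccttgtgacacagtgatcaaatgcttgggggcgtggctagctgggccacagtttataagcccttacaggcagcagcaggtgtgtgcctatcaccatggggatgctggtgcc
Ifitm3: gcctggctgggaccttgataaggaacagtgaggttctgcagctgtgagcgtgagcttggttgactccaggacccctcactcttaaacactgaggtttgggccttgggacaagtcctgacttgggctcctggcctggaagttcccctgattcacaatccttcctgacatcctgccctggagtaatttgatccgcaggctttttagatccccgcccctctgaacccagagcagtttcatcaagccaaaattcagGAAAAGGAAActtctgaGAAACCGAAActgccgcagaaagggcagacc

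The signalling genes upstream of this response moved less evenly. Of 27 listed genes, 26 had a probe set and 25 were tested. In this list 17 genes rose and 2 fell, with a median of 1.12, and 6 rose and 1 fell under spike-in scaling. Irf7, the factor that drives interferon genes in an amplifying loop, led the list with signals of 3460.1 and 3856 at 24 h, against 89.2 and 102 at 12 h. It rose by 5.26 ± 0.38 (adjusted p = 2.5e-05), and both 24 h arrays lay far above both 12 h arrays. Irf9, a DNA-binding part of the complex with Stat2, had signals of 2788 and 2642 at 24 h, against 433 and 455 at 12 h, and rose by 2.61 ± 0.13 (adjusted p = 4.8e-06). Stat2 had 1756 and 1731 at 24 h, against 291 and 305 at 12 h, and rose by 2.55 ± 0.17 (adjusted p = 1.5e-05). Irf5, a factor of inflammatory macrophages, rose by 3.12 ± 0.09, with signals of 2549 and 2298 at 24 h, against 278 and 279 at 12 h.

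Receptor chains rose by smaller amounts. Ifnar1 rose by 1.07 ± 0.12 and Ifnar2 by 1.12 ± 0.10, and Ifnar1 had signals of 1541 and 1639 at 24 h, against 776 and 743 at 12 h. Neither passed the test under spike-in scaling. Socs3, a feedback inhibitor of cytokine receptors, had 5977 and 5592 at 24 h, against 1306 and 1285 at 12 h, and rose by 2.16 ± 0.17 (adjusted p = 4.5e-05). Ikbke, a kinase that activates Irf3 and Irf7, rose by 2.06 ± 0.27. The 2 genes that fell were Irf4, a factor of lymphocytes, by 1.37 ± 0.21, and Stat3, a transducer of interleukin 6 and related cytokines, by 0.90 ± 0.07. The interferon gene Ifnb1 was near the filter level, with signals of 74.6 and 78.7 at 24 h, against 37.1 and 50.5 at 12 h. Its change of 0.82 did not pass the test (adjusted p = 0.061). Ifng was at the floor in all 4 arrays and under the filter level in every array of the study.

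Genes of DNA replication and the entry into S phase had the lowest median of the 30 lists. Of 36 listed genes, 34 were tested, and 33 fell, with a median of -2.76. Under spike-in scaling the same number, 33, fell. Their summed signal was 21009 and 20610 at 24 h, against 153789 and 154124 at 12 h. Tyms, which encodes thymidylate synthase, was the member that was not called, with signals of 938 and 1066 at 24 h, against 763 and 857 at 12 h and a change of 0.31 ± 0.19 (adjusted p = 0.24), in which the 24 h arrays lay above the 12 h arrays.

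All 6 subunits of the MCM2-7 helicase, which unwinds DNA at the fork, fell. Mcm3 had signals of 337 and 295 at 24 h, against 7880.2 and 8018 at 12 h, and fell by 4.66 ± 0.12 (adjusted p = 3.7e-07), the largest fall among genes measured in all 4 arrays. Mcm5 had 979.5 and 903 at 24 h, against 14624 and 14569 at 12 h, and fell by 3.96 ± 0.08 (adjusted p = 1.6e-07). Mcm7 had 924 and 929.6 at 24 h, against 12970.0 and 13232 at 12 h, and fell by 3.82 ± 0.07. The changes of the other subunits were -3.79 ± 0.10 for Mcm2, -3.63 ± 0.10 for Mcm4 and -3.44 ± 0.15 for Mcm6. The 24 h and 12 h arrays were far apart in all 6 subunits. Cdc6, which loads this helicase onto origins, had signals of 20.2 and 87.3 at 24 h, against 2568 and 2343 at 12 h. With 1 of its 24 h arrays under the filter level, its fitted change of -5.87 ± 0.59 is uncertain.

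Enzymes of nucleotide supply, DNA joining and S phase entry fell too. Rrm2, the regulatory subunit of ribonucleotide reductase, had 506 and 674 at 24 h, against 13627 and 14278 at 12 h, and fell by 4.58 ± 0.14 (adjusted p = 6.5e-07). Dut, which destroys dUTP, had 150.1 and 259 at 24 h, against 3679.8 and 3507 at 12 h, and fell by 4.19 ± 0.22. Tk1, thymidine kinase, was under the filter level in both 24 h arrays, with signals of 65.3 and 73.7 at 24 h, against 1335 and 1405 at 12 h, at least 18.3-fold lower at 24 h (adjusted p = 4.1e-07). Ung, which removes uracil from DNA and is not in the replication list, was at least 18.2-fold lower. Its signals were 38.1 and 59.6 at 24 h, against 1234 and 1496 at 12 h. Lig1, the ligase that joins Okazaki fragments, had 210.1 and 214 at 24 h, against 3706 and 3553 at 12 h, and fell by 4.10 ± 0.13 (adjusted p = 6.2e-07). Pcna, the sliding clamp of the polymerases, kept signals of 4050.4 and 3840.2 at 24 h, against 19893 and 21393 at 12 h, and fell by 2.39 ± 0.07. Ccne2, a cyclin that drives entry into S phase, was at least 15.9-fold lower (adjusted p = 1.6e-06), and its signals were 44.5 and 35.6 at 24 h, against 1152 and 1229.5 at 12 h. E2f1, an activator of these genes, had 262 and 324 at 24 h, against 1049 and 942 at 12 h, and fell by 1.77 ± 0.17.

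Further genes were named for their place among the largest falls or bounds of the whole table, of which Gins1 is in the replication list. Hells, a chromatin remodeller, fell by 4.12 ± 0.12, with signals of 164 and 207 at 24 h, against 3171 and 3231 at 12 h. Gins1, a part of the CMG helicase, fell by 3.64 ± 0.13, and Fignl1 fell by 3.65 ± 0.24. Rgcc, a regulator of the cell cycle that responds to complement, fell by 3.98 ± 0.19, with 93.3 and 120.2 at 24 h, against 1651 and 1693 at 12 h. The exonuclease Exo1 had 30.2 and 33.3 at 24 h, against 884 and 785 at 12 h, at least 11.2-fold lower. Dscc1, which helps to load the clamp and to join sister chromatids, was at the floor in both 24 h arrays, with signals of 16 and 16 at 24 h, against 929 and 831 at 12 h, and at least 11.8-fold lower (adjusted p = 1.7e-07). Esco2, the acetyltransferase that makes cohesion stable, was at least 9.03-fold lower, Cenph of the kinetochore at least 12.6-fold and Psmc3ip, a recombination factor, at least 7.92-fold.

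Windows were listed for 28 of the 34 replication genes, in 34 windows. E2F-like letters (TTTCCCGC, TTTCGCGC, TTTGCCGC or TTTGGCGC, both strands) occurred in 13 of the 34 windows (38.2%), and in 2.26% of all windows. The ISRE letters occurred in 0 of them. The windows of Mcm3 on the minus strand at chr1:20820263-20820562, with 2 matches, and of Cdc6 on the plus strand at chr11:98907901-98908200, with 1 match, belong to members with deep falls. They too were drawn only from members with a match, and Ccne2, with a larger fitted fall than Mcm3, was passed over.
Mcm3: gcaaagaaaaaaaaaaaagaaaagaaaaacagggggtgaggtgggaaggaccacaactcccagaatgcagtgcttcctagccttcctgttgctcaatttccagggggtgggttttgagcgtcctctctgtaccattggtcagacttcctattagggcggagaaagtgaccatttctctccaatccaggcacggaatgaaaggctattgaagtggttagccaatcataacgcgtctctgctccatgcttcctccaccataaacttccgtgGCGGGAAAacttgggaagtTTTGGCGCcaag
Cdc6: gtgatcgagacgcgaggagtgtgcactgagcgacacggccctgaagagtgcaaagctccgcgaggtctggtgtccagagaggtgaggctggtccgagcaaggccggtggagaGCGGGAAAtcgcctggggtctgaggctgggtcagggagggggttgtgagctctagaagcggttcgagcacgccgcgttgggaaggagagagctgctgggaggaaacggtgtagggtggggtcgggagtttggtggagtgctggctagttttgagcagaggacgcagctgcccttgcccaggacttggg

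Mitotic genes fell in the same interval, with a median nearer 0 than that of the replication genes. Of 40 listed genes 39 had a probe set, and all 39 of these were tested and fell, with a median of -2.33, and 39 fell under spike-in scaling. Their summed signal was 26835 and 27502 at 24 h, against 120833 and 120568 at 12 h. With 1 of the 4 arrays left out, 38 fell in each case.

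Ncapg, a subunit of condensin I, which compacts chromosomes, had signals of 138 and 181 at 24 h, against 1419 and 1349.6 at 12 h, and fell by 3.13 ± 0.19 (adjusted p = 1.1e-05). Kif11, the motor that separates spindle poles, had 186 and 180.4 at 24 h, against 1298 and 1558 at 12 h, and fell by 2.96 ± 0.42 (adjusted p = 8.8e-04). Mybl2, the B-Myb factor of the complex that activates mitotic genes, had 102 and 105 at 24 h, against 755 and 742 at 12 h, and fell by 2.86 ± 0.14. In each of these genes both 24 h arrays were still above the filter level. Ttk, Mad2l1 and Ndc80 act in the spindle checkpoint or at the kinetochore, with changes of -2.87 ± 0.22, -2.83 ± 0.16 and -2.91 ± 0.42. Mki67, the proliferation antigen Ki-67, kept signals of 1304 and 1503 at 24 h, against 7710.1 and 7986 at 12 h, and fell by 2.49 ± 0.09 (adjusted p = 1.2e-06). The shallowest falls of the list were those of Pttg1, securin, at -1.19 ± 0.06, and Foxm1 at -1.33 ± 0.15, named for their rank after their values were seen.

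Mitotic promoters held another set of letters. Windows were listed for 33 of the 39 genes, in 36 windows, and 24 of these (66.7%) held both the CHR-like letters TTTGAA and a CCAAT box on either strand, against 6.95% of all windows. E2F-like letters occurred in 2 of the 36 (5.56%). The windows of Ncapg at chr5:45669675-45669974 and Kif11 at chr19:37376132-37376431, both on the plus strand, are shown with both kinds of match in capitals.
Ncapg: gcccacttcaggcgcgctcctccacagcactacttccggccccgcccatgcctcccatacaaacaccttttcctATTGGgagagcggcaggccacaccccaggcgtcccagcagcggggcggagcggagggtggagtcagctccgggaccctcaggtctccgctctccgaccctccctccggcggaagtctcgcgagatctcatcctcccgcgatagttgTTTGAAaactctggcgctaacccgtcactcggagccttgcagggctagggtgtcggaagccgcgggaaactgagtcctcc
Kif11: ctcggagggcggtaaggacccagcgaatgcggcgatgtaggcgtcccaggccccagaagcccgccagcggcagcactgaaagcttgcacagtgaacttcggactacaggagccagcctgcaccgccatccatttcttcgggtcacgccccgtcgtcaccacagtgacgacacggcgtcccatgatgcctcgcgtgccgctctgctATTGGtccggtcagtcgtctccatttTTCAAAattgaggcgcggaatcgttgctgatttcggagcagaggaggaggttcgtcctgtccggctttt

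**Figure D2:**
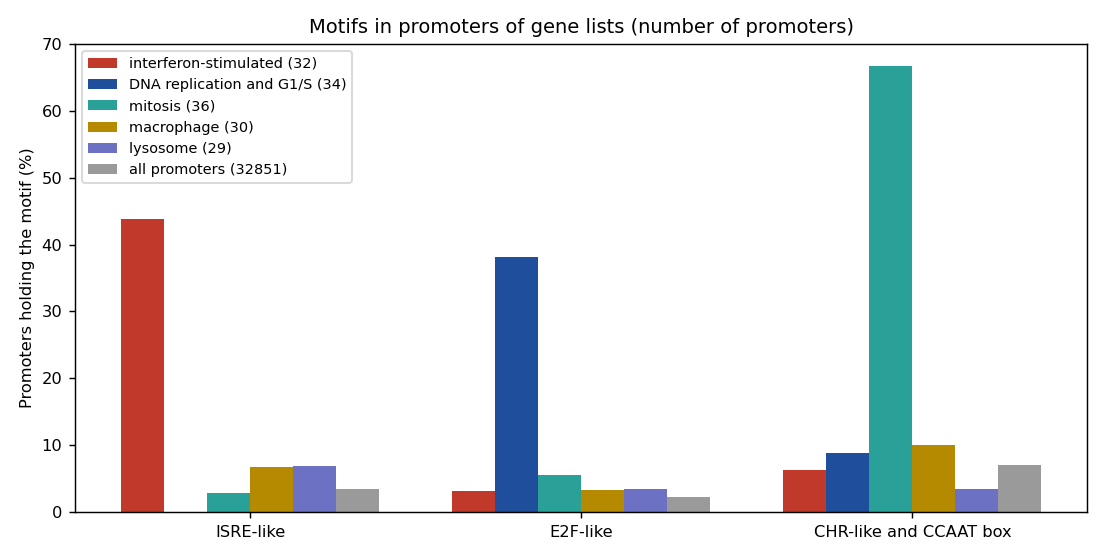
Bars give the percentage of RefSeq promoter windows that hold each set of letters, for 5 gene lists and for all promoters, with the number of windows in the legend. ISRE-like letters peak in the interferon-stimulated list (43.8%), E2F-like letters in the replication list (38.2%) and the CHR with a CCAAT box in the mitosis list (66.7%).

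Regulators of the cell cycle moved in both directions, against 22.3% higher and 23.1% lower over all genes. Of 16 tested CDK inhibitors, pocket proteins and G1 cyclins or kinases, 8 rose and 5 fell, with a median of 0.28. Scaled to the spike-ins, 3 rose and 2 fell, with a median of -0.10, which lay 0.33 above that of all genes. Cdkn1a, the p21 inhibitor, had 8579.5 and 9171 at 24 h, against 4017 and 3551 at 12 h, and rose by 1.23 ± 0.12 (adjusted p = 1.0e-04). Tested on their own, 1 of its 2 probe sets was called higher. Under spike-in scaling its difference of 0.86 did not pass the test. Cdkn2b, the p15 inhibitor of Cdk4 and Cdk6, had 1849 and 1904 at 24 h, against 472 and 488 at 12 h, and rose by 1.97 ± 0.18 (adjusted p = 8.2e-05). The D cyclins Ccnd1 and Ccnd2, which activate those kinases, rose as well, Ccnd1 by 2.15 ± 0.07 with signals of 6819 and 7030.5 at 24 h, against 1589.5 and 1539.9 at 12 h. Ccnd2 rose by 2.34 ± 0.08, and all 6 of its probe sets were called higher. The differences of 0.19 ± 0.08 in Ccnd3 and of 0.07 ± 0.06 in Cdkn1b, the p27 inhibitor, did not pass the test. Rbl1, the pocket protein p107 and itself an E2F target, fell by 1.40 ± 0.10, and Cdkn2c, the p18 inhibitor, fell by 1.28 ± 0.17.

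Macrophage genes rose in this interval. Of 40 listed genes 38 had a probe set and 33 passed the filter, 7 of them with both 12 h arrays under it, and 27 rose and 0 fell. The median was 2.69, or 1.90 with dim genes at their bound. Under spike-in scaling 21 rose, and with 1 array left out 25 or 26. The summed signal over all 38 was 176710 and 175710 at 24 h, against 30833 and 31101 at 12 h.

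Tyrobp, the adaptor Dap12 that carries the signal of many myeloid receptors, had signals of 19482 and 19561 at 24 h, against 328 and 395 at 12 h. It rose by 5.76 ± 0.13 (adjusted p = 2.5e-07). Csf1r, the receptor for macrophage colony-stimulating factor, had 11529 and 11869 at 24 h, against 715 and 646 at 12 h, and rose by 4.10 ± 0.16 (adjusted p = 1.5e-06). Fcgr3 and Fcgr1, receptors for antibody Fc parts, rose by 5.50 ± 0.28 and 4.67 ± 0.13, and Fcgr3 had signals of 9601 and 9111 at 24 h, against 195 and 220.0 at 12 h. Mmp12, the elastase of macrophages, had 5661 and 5889 at 24 h, against 146 and 103 at 12 h, and rose by 5.56 ± 0.31 (adjusted p = 7.5e-06). In all 5 genes the lower 24 h array was far above the higher 12 h array.

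Lyz2, lysozyme, had 34455 and 34229 at 24 h, against 4593 and 4356 at 12 h, and rose by 2.94 ± 0.14 (adjusted p = 3.0e-06). Cd14, the co-receptor for bacterial lipopolysaccharide, had 22897 and 22467 at 24 h, against 2542 and 2524 at 12 h, and rose by 3.16 ± 0.57 (adjusted p = 0.0027). Both were thus already bright at 12 h. C3ar1, the receptor for complement fragment C3a, which is no member of the list, was by contrast under the filter level at 12 h, with 3331 and 3721 at 24 h, against 29.9 and 22.5 at 12 h. It was at least 47.2-fold higher (adjusted p = 3.2e-06). P2ry6, a receptor for extracellular UDP, was at least 19.7-fold higher. Itgam, the Mac-1 integrin chain, was at the floor at 12 h and low at 24 h, with 262 and 164 at 24 h, against 16 and 16 at 12 h, at least 2.78-fold higher (adjusted p = 6.1e-05). Pilra, an inhibitory myeloid receptor, was at least 6.41-fold higher. Lgals3, galectin-3, had 1851 and 2044 at 24 h, against 85.9 and 70.1 at 12 h, and its fitted change of 4.65 ± 0.22 is uncertain because 1 of its 12 h arrays was under the level.

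The macrophage markers did not all rise. Adgre1, which encodes F4/80, had 118 and 108 at 24 h, against 119.9 and 99.0 at 12 h, and its change of 0.05 ± 0.42 did not pass the test (adjusted p = 0.94). C1qa and C1qc, complement components of mature macrophages, were at the floor in all 4 arrays, and C1qb was under the filter level throughout. Among phagocyte oxidase subunits, 5 of 6 rose, and 1 did under spike-in scaling. The cytosolic subunit Ncf4 led, with 7369 and 6672 at 24 h, against 959.5 and 1119.8 at 12 h, and rose by 2.76 ± 0.10 (adjusted p = 1.2e-06). The membrane subunit Cybb was bright at both times, with 23387 and 22965 at 24 h, against 16790.5 and 17668 at 12 h, and rose by 0.43 ± 0.09, a call lost under spike-in scaling.

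Genes of granulocyte granules rose in part. Of 21 listed genes 17 had a probe set, and 6 of the 10 tested rose, with a median of 1.79, and 5 rose under spike-in scaling. With any 1 of the 4 arrays left out, 4 rose, without S100a8 and Hp, haptoglobin (adjusted p of 0.0928 to 0.108 for Hp). The summed signal over the 17 was 45319 and 44132 at 24 h, against 12285 and 12025 at 12 h. Camp, the cathelicidin peptide, had 8451 and 7538 at 24 h, against 969 and 879 at 12 h, and rose by 3.11 ± 0.10 (adjusted p = 5.9e-07). Prtn3, proteinase 3, had 2822 and 2930.4 at 24 h, against 452 and 416 at 12 h, and rose by 2.73 ± 0.60. Mmp8, neutrophil collagenase, had 6873 and 7152 at 24 h, against 1577 and 1464 at 12 h, and rose by 2.21 ± 0.10. S100a8, a calprotectin subunit, had 6677 and 6108 at 24 h, against 1494 and 1765 at 12 h, a rise of 1.98 ± 0.55 whose call was lost with any of the 4 arrays left out (adjusted p of 0.0619 to 0.0895). Its partner S100a9 had 22.2 and 25.8 at 24 h, against 64.6 and 89.8 at 12 h, and did not pass the filter, nor did Ltf, Elane and Csf3r. Ngp, a neutrophil granule protein, had a difference of -0.17 ± 0.45 that did not pass the test (adjusted p = 0.8).

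**Figure D3:**
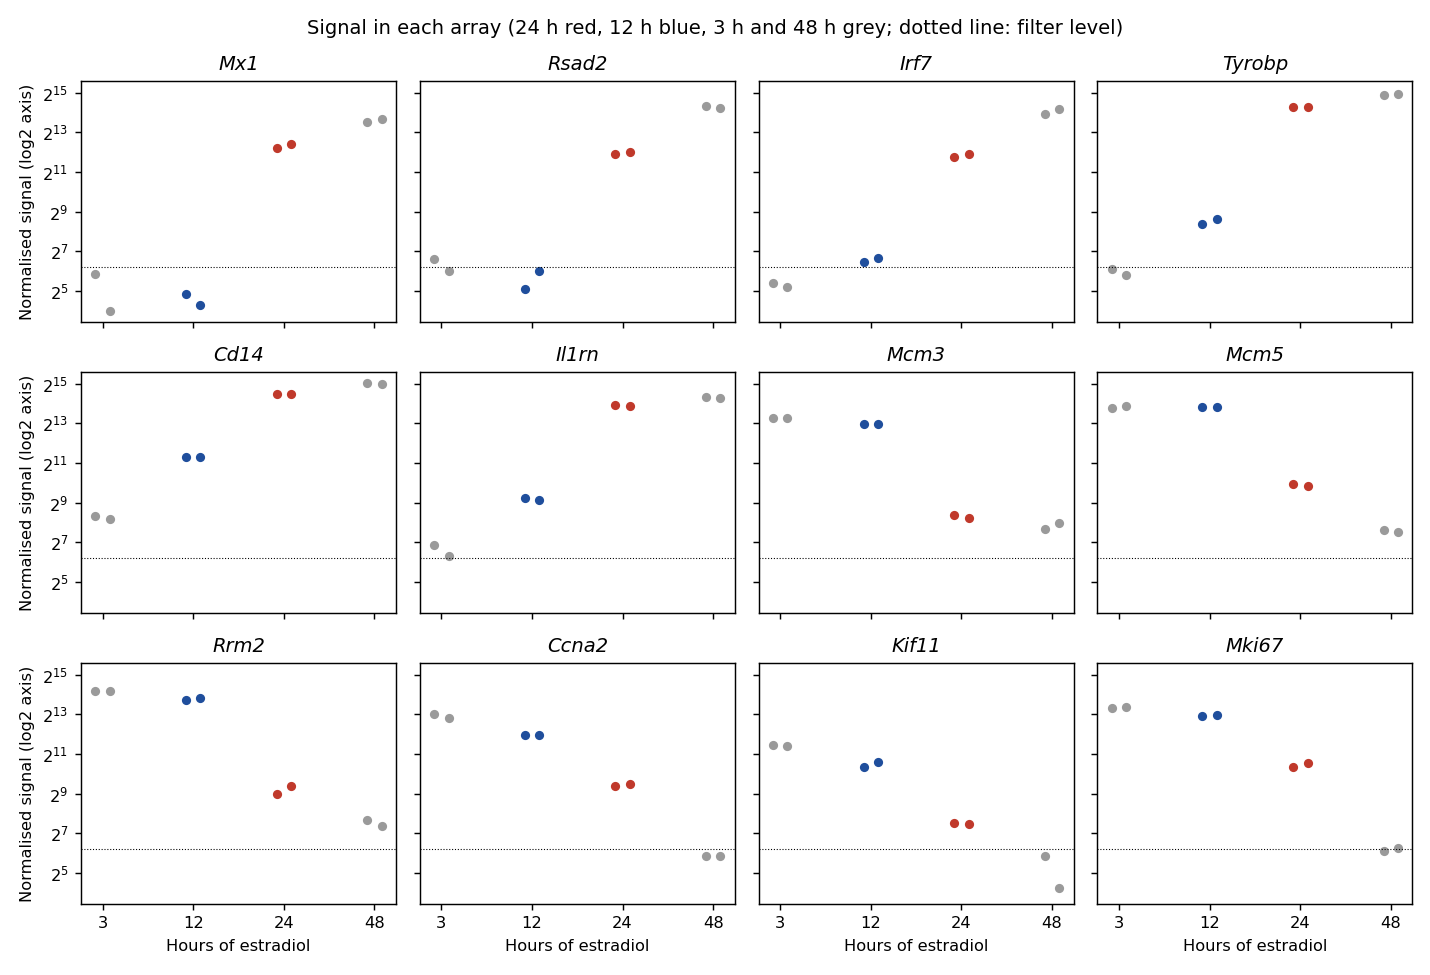
Normalised signal (log2 axis) of 12 genes in each array of C10 at 3, 12, 24 and 48 h of estradiol, with hours evenly spaced on the x axis and the filter level as a dotted line. Mx1, Rsad2 and Irf7 are near or under the filter level at 12 h and far above it at 24 h, Cd14 and Il1rn climb from 3 h on, and Mcm3 falls between 12 h and 24 h while Mki67 falls further by 48 h.

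Secreted factors changed selectively. Of 26 tested cytokines and chemokines 13 rose and 0 fell, with 10 rising under spike-in scaling. Both 12 h arrays were at or under the filter level in 3 of the 26, and all 4 arrays in 4 more. Il1rn, the antagonist of the interleukin 1 receptor, had 15755 and 14795 at 24 h, against 597 and 569 at 12 h, and rose by 4.71 ± 0.49 (adjusted p = 1.6e-04). Il1b, interleukin 1 beta itself, had 17204 and 15674 at 24 h, against 2412 and 2684 at 12 h, and rose by 2.69 ± 0.16 (adjusted p = 8.6e-06). Ccl2, which attracts monocytes, had 7692 and 8721 at 24 h, against 57.4 and 75.9 at 12 h, and with 1 of the 12 h arrays under the filter level its fitted change of 6.96 ± 0.48 is uncertain. Ccl6, another monocyte attractant, had 6291 and 5729.7 at 24 h, against 691 and 808 at 12 h, and rose by 3.01 ± 0.12. Il18 and Il15 rose by 2.83 ± 0.15 and 2.95 ± 0.41. Tnf had 981 and 1231 at 24 h, against 919 and 959.9 at 12 h, and its difference of 0.23 ± 0.24 did not pass the test (adjusted p = 0.49). Cxcl10, an interferon-induced chemokine, was under the filter level at 12 h, with 175 and 129 at 24 h, against 64.6 and 35.1 at 12 h, at least 2.01-fold higher, a call lost with any of the 4 arrays left out (adjusted p of 0.05 to 0.216).

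Receptors for cytokines and chemokines rose more often than they fell. Of 20 tested receptors 12 rose and 3 fell, and 5 rose and 1 fell under spike-in scaling. Both 12 h arrays were at or under the filter level in 2 of the 20. Of all genes tested, 22.3% rose and 23.1% fell, and 4.18% and 9.59% did under that scaling. Ccr1, a receptor for macrophage inflammatory chemokines, had 6569.5 and 6423 at 24 h, against 378 and 437 at 12 h, and rose by 4.0 ± 0.12 (adjusted p = 5.8e-07). Lifr, the receptor for leukaemia inhibitory factor, had 989 and 941 at 24 h, against 189 and 114 at 12 h, and rose by 2.71 ± 0.24, and Il4ra, a receptor chain for interleukins 4 and 13, by 2.20 ± 0.19. The 3 genes that fell were Il7r, which carries the growth signal of B cell precursors, with 192 and 203 at 24 h, against 330.1 and 396 at 12 h and a change of -0.87 ± 0.11, Cxcr4, at -0.97 ± 0.19, and Tgfbr1, at -0.73 ± 0.10. The call of Il7r was lost under spike-in scaling.

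Genes of Toll-like receptors, NF-kB and inflammasomes rose more often than they fell, against 22.3% higher and 23.1% lower over all genes. Of 28 tested genes 18 rose and 3 fell, with a median of 1.10, or 0.96 with dim genes at their bound, and 10 rose and 0 fell under spike-in scaling. Tlr3, which senses double-stranded RNA, was under the filter level at 12 h, with 467 and 483 at 24 h, against 49.2 and 41.6 at 12 h, at least 6.36-fold higher (adjusted p = 8.5e-07). Tlr1 was at least 3.43-fold higher and Tlr13, a sensor of bacterial ribosomal RNA, at least 3.13-fold higher. Tlr4, the receptor for lipopolysaccharide, had 2099 and 2324 at 24 h, against 555 and 475 at 12 h, and rose by 2.10 ± 0.12 (adjusted p = 7.6e-06). Pycard, the adaptor of inflammasomes, had 6753 and 6589 at 24 h, against 1637 and 1739 at 12 h, and rose by 1.98 ± 0.08. The 3 genes that fell were Rel, at -0.54 ± 0.17, Irak3, at -0.52 ± 0.11, and Nfkbiz, at -0.47 ± 0.13. With any 1 array of the comparison left out, fewer genes of the list rose and fewer fell. Rela, the p65 subunit, had a difference of -0.17 ± 0.10 that did not pass the test. In 1 gene of the list, Traf6, probe sets were called in both directions.

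Myeloid transcription factors rose more often than they fell. Of 30 tested 19 rose and 6 fell, with a median of 0.77, and 6 rose and 2 fell under spike-in scaling. Without the second 24 h array or either 12 h array, 3 fell. Cebpb, a relative of the introduced factor that is active in macrophages, had 9415 and 10156 at 24 h, against 2258 and 2277 at 12 h, and rose by 2.11 ± 0.16 (adjusted p = 3.6e-05). Cebpd, another relative, had 5872 and 5781 at 24 h, against 841 and 829 at 12 h, and rose by 2.80 ± 0.17 (adjusted p = 1.2e-05). Batf2, an interferon-inducible factor, was at or near the floor at 12 h, with 365 and 286 at 24 h, against 16 and 16.1 at 12 h, at least 4.33-fold higher. Tfec, a macrophage relative of Mitf, rose by 2.86 ± 0.42, and the AP-1 members Fosl2 and Jun by 2.00 ± 0.18 and 1.86 ± 0.17. Spi1, which encodes PU.1, had 4638 and 4599 at 24 h, against 5621 and 5619 at 12 h, a change of -0.28 ± 0.09 that was called with all arrays (adjusted p = 0.035) and lost with any of the 4 arrays left out (adjusted p of 0.103 to 0.117). Gfi1, a repressor that favours granulocytes and lymphocytes over macrophages, had 635 and 694 at 24 h, against 1938 and 1884 at 12 h, and fell by 1.53 ± 0.15 (adjusted p = 1.3e-04). The probe set of Cebpa was at the floor in all 4 arrays and under the filter level throughout, which leaves the introduced construct unchecked. Esr1, the oestrogen receptor gene, was under the level in both 24 h arrays, with 54.5 and 41.2 at 24 h, against 197 and 239.6 at 12 h, at least 2.91-fold lower (adjusted p = 3.6e-04).

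B lineage transcription factors fell more often than they rose, against 22.3% higher and 23.1% lower over all genes. Of 18 tested 4 rose and 11 fell, with a median of -0.45, and 0 rose and 4 fell under spike-in scaling. The 4 rises were those of Ikzf1, at 0.27 ± 0.07, Gfi1b, at 0.95 ± 0.12, Id3, at 1.39 ± 0.24, and Pou2f2, which was near the filter level. The count of rises was 2 without the first 24 h array or without the second 12 h array. Myb, which lymphoid and myeloid progenitors need to divide, had 3082 and 3086 at 24 h, against 12615 and 12569 at 12 h, and fell by 2.03 ± 0.08 (adjusted p = 1.3e-06). Bach2, a repressor of myeloid genes in B cell precursors, had 306 and 259 at 24 h, against 990.4 and 919 at 12 h, and fell by 1.76 ± 0.21. Ikzf3, the lymphoid factor Aiolos, was under the filter level in both 24 h arrays, with 43.7 and 67.5 at 24 h, against 238 and 250.3 at 12 h, at least 3.27-fold lower (adjusted p = 9.3e-05). Spib, a relative of PU.1 in B cells, fell by 1.50 ± 0.15. The factors that define the B lineage were not among the falls. Pax5 had 174 and 179 at 24 h, against 168 and 237 at 12 h, a difference of -0.18 ± 0.29 (adjusted p = 0.67), and Ebf1 had 1188 and 1475 at 24 h, against 1262 and 1386 at 12 h, a difference of 0.00 ± 0.13 (adjusted p = 0.997), with the arrays of the 2 times overlapping in both genes.

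Surface and signalling genes of B cells showed no common fall. Of 29 listed genes 27 had a probe set and 26 were tested, of which 9 rose and 3 fell, with a median of 0.41. Under spike-in scaling 4 rose and 1 fell, with a median of 0.52 above that of all genes. Among the 26, 7 were at or under the filter level in all 4 arrays, where a fall could hardly be seen. The summed signal over the 27 was 41568 and 39464 at 24 h, against 39447 and 40272 at 12 h. Cd79b, the Igβ chain, had 7047 and 6836 at 24 h, against 1951 and 2154 at 12 h, and rose by 1.76 ± 0.08 (adjusted p = 2.5e-06). Cd79a, the Igα chain, had 4379 and 4446 at 24 h, against 4122 and 4320.0 at 12 h and a difference of 0.06 ± 0.08, which did not pass the test. Cd72, an inhibitory coreceptor, had 888 and 956 at 24 h, against 226 and 238 at 12 h, and rose by 1.99 ± 0.09, and Cd2 had 460.5 and 484 at 24 h, against 88.2 and 105 at 12 h, and rose by 2.29 ± 0.10. Cnr2, a cannabinoid receptor of immune cells, was at least 6.09-fold higher. Igll1, the λ5 part of the surrogate light chain, had 5674 and 5281 at 24 h, against 13471 and 12955 at 12 h, and fell by 1.27 ± 0.07 (adjusted p = 6.0e-06). Its partner Vpreb1 fell by 0.44 ± 0.15 (adjusted p = 0.043), a call lost without the second 24 h array or without either 12 h array. Rag1 was at the floor in all 4 arrays.

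Antigen presentation genes divided by class and by chain. All of the called members of MHC class I and its immunoproteasome rose, 11 of 13 tested, with a median of 0.76, and 1 rose under spike-in scaling. Tap1, a subunit of the peptide transporter, had 2273 and 2508 at 24 h, against 586 and 581 at 12 h, and rose by 2.03 ± 0.08 (adjusted p = 1.5e-06), and Tapbp, tapasin, rose by 1.65 ± 0.09. In MHC class II, 4 of 8 tested rose and 2 fell, counts that were the same under spike-in scaling. Cd74, the invariant chain, had 13709.7 and 13856 at 24 h, against 1136 and 1194 at 12 h, and rose by 3.56 ± 0.08 (adjusted p = 1.7e-07). H2-DMa, part of the peptide editor, had 2274 and 2301 at 24 h, against 218 and 152 at 12 h, and rose by 3.65 ± 0.21 (adjusted p = 8.2e-06), and H2-Ob and H2-Oa, which inhibit that editor, by 2.45 ± 0.12 and 1.94 ± 0.16. The 2 members that fell encode peptide-binding chains. H2-Aa was under the filter level in both 24 h arrays, with 49.3 and 66.8 at 24 h, against 404 and 246 at 12 h, at least 4.22-fold lower (adjusted p = 2.6e-04), and H2-Eb1 had 194 and 241 at 24 h, against 468 and 502 at 12 h, and fell by 1.17 ± 0.11 (adjusted p = 1.1e-04). Ciita, the master activator of these genes, was under the level in all 4 arrays, with 47.7 and 48.9 at 24 h, against 55.5 and 43.6 at 12 h.

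Lysosomal genes rose by modest amounts. Of 31 tested 20 rose and 0 fell, with a median of 0.82, and 3 rose under spike-in scaling. Psap, the saposin precursor, had 24190.5 and 22592 at 24 h, against 6402 and 5977 at 12 h, and rose by 1.92 ± 0.10 (adjusted p = 4.1e-06). Ctsa and Ctss, lysosomal proteases, rose by 1.90 ± 0.11 and 1.66 ± 0.06, and Ctss had 11447 and 11549.7 at 24 h, against 3616 and 3663 at 12 h. Of 22 tested genes of sterol and fatty acid synthesis 3 rose and 15 fell, with a median of -0.65, and 0 rose and 6 fell under spike-in scaling. With any 1 array of the comparison left out, fewer of these genes fell. Fewer rose without the second 24 h array or without the second 12 h array. Hmgcs1, which makes HMG-CoA, had 6177 and 6024 at 24 h, against 11239.8 and 11683 at 12 h, and fell by 0.91 ± 0.08 (adjusted p = 5.1e-05). Idi1 and Hsd17b7, later enzymes of the pathway, had changes of -1.11 ± 0.09 and -1.18 ± 0.07. Abca1, which exports cholesterol from macrophages, had 1136 and 1143 at 24 h, against 189 and 111 at 12 h, and rose by 2.98 ± 0.25 (adjusted p = 5.8e-05). Plin2, which coats lipid droplets, had 15295 and 15174 at 24 h, against 5151 and 4924 at 12 h, and rose by 1.60 ± 0.07, a call lost under spike-in scaling, while Dgat2, a triglyceride synthase, had 1901 and 1876 at 24 h, against 5088 and 5049 at 12 h, and fell by 1.42 ± 0.33 (adjusted p = 0.009).

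Most ribosome biogenesis genes fell, and Myc did not. In the list of Myc with ribosome biogenesis genes, 26 of 30 tested fell and 2 rose, with a median of -1.11, and 17 fell and 0 rose under spike-in scaling. Dkc1, which modifies ribosomal RNA, had 743 and 658 at 24 h, against 2479 and 2307 at 12 h, and fell by 1.77 ± 0.14 (adjusted p = 3.6e-05). Nop58, a scaffold of box C/D particles, fell by 1.50 ± 0.12, and Rrp12 and Utp20 had changes of -1.76 ± 0.27 and -1.50 ± 0.13. The 2 rises were those of Heatr1, which acts in ribosomal RNA synthesis, by 1.14 ± 0.08, and of Myc. Myc had 2027 and 1935 at 24 h, against 1762 and 1665 at 12 h, and rose by 0.21 ± 0.07 (adjusted p = 0.047), a call lost with any of the 4 arrays left out (adjusted p of 0.0759 to 0.204) and a value that turned to -0.22 under spike-in scaling.

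Among adhesion and cytoskeleton genes 15 of 33 tested rose and 2 fell, with a median of 0.31. Scaled to the spike-ins, 6 rose and 1 fell, with a median of -0.05, which lay 0.38 above that of all genes. Myo1f, a myosin of leukocytes, had 4330.0 and 4629 at 24 h, against 524 and 611 at 12 h, and rose by 2.98 ± 0.19 (adjusted p = 1.5e-05). Capg, an actin-capping protein of macrophages, had 8648 and 7969 at 24 h, against 1257 and 1144 at 12 h, and rose by 2.79 ± 0.09 (adjusted p = 6.9e-07). Selplg, the P-selectin ligand, rose by 2.14 ± 0.07. Itgax, the CD11c chain, and Itgb7 each had 1 dim 12 h array, and their fitted changes of 3.23 ± 0.54 and 3.74 ± 0.68 are uncertain. In p53 targets and the Bcl2 family 12 of 19 tested rose and 1 fell, and 3 rose under spike-in scaling. Fas, the death receptor, had 1774 and 1748 at 24 h, against 246 and 341 at 12 h, and rose by 2.60 ± 0.30 (adjusted p = 2.7e-04). Bcl2l11, the death-promoting protein Bim, had 5192 and 5564 at 24 h, against 1446 and 1455 at 12 h, and rose by 1.89 ± 0.08 (adjusted p = 1.6e-06), and its opponent Bcl2l1, Bcl-xL, by 1.28 ± 0.12. The gene that fell was Gadd45a, a stress-induced gene, at -0.58 ± 0.12.

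Signalling feedback and sugar metabolism genes rose more often than they fell, against 22.3% higher and 23.1% lower over all genes. Of 15 immediate early and ERK feedback genes 8 rose and 3 fell, with a median of 0.75, and 0 were called under spike-in scaling. Dusp5, a phosphatase that switches off ERK, had 4409 and 4943 at 24 h, against 1535 and 1679.6 at 12 h, and rose by 1.54 ± 0.17 (adjusted p = 2.3e-04). The 3 genes that fell were Nr4a1, at -0.81 ± 0.10, Spred1, at -0.37 ± 0.07, and Spry2, at -0.36 ± 0.13 (adjusted p = 0.049). Of 14 tested genes of glycolysis 10 rose and 2 fell, with a median of 0.47, and 1 rose and 1 fell under spike-in scaling. Slc2a3, a glucose transporter, had 4328 and 4036 at 24 h, against 1452 and 1422 at 12 h, and rose by 1.54 ± 0.09 (adjusted p = 9.3e-06), a call lost under that scaling. Pfkfb3, which makes an activator of glycolysis, had 317 and 317 at 24 h, against 1811 and 2130.2 at 12 h, and fell by 2.63 ± 0.19 (adjusted p = 2.5e-05). The other fall was that of Pgam1, at -0.50 ± 0.07. In lipid handling, 6 of 9 tested genes rose and 2 fell, with a median of 1.28, or 0.69 with dim genes at their bound. Under spike-in scaling 3 rose and 1 fell. Both 12 h arrays were at or under the filter level in 2 of the 9.

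The neighbouring steps put these changes in time. From 3 h to 12 h, 1944 genes (16.6%) rose and 1937 (16.6%) fell, and from 24 h to 48 h, 1108 (9.47%) rose and 2095 (17.9%) fell. The steps differ in length, and each neighbour shares arrays with the step from 12 h to 24 h, so a deviation in a shared array enters both changes with opposite sign. The contrast of this step with the preceding one was called in 24.7% of genes, higher in 1331 (11.4%) and lower in 1553 (13.3%). The contrast with the following one was called in 22.9%, higher in 1600 (13.7%) and lower in 1075 (9.19%). Without the first or the second 12 h array the difference from the preceding step was called in 1634 and 1613 genes, in place of 2884. Without the first or the second 24 h array the difference from the following step was called in 1368 and 1402 genes, in place of 2675.

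Interferon-stimulated genes had a median change of 0.18 from 3 h to 12 h, 3.51 from 12 h to 24 h and 1.16 from 24 h to 48 h. The change from 12 h to 24 h was larger than the preceding one in 36 of 37 genes, all but Gbp3, and larger than the following one in 30 of 37. Rsad2 had signals of 98.3 and 63.3 at 3 h, of 34.2 and 65.4 at 12 h, of 3849 and 4186 at 24 h and of 20513 and 19017 at 48 h. Its change in the step exceeded the preceding one by 7.15 ± 0.55 (adjusted p = 1.2e-04) and the following one by 4.11 ± 0.55 (adjusted p = 0.0021), fitted values that include dim arrays. Irf7 had 3 h signals of 42.9 and 37.3 and 48 h signals of 15434 and 18193, and the step exceeded the preceding one by 4.0 ± 0.66 (adjusted p = 0.0044) and the following one by 3.06 ± 0.66 (adjusted p = 0.015). Ifnb1 rose in the next interval, with 214 and 252 at 48 h and a change of 1.60 ± 0.30 from 24 h (adjusted p = 0.0075). The test of that interval against the step from 12 h to 24 h did not pass (adjusted p = 0.34).

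Replication genes fell mostly in this step, and mitosis genes in this step and the next. Replication genes had median changes of -0.39, -2.76 and -0.48 in the 3 steps, and the fall from 12 h to 24 h was steeper than the preceding change in 33 of 34 genes and than the following one in 32. Mcm3 had 3 h signals of 9963 and 9726 and 48 h signals of 202 and 253. Its change in the step differed from the preceding one by -4.35 ± 0.20 (adjusted p = 1.4e-05) and from the following one by -4.17 ± 0.20 (adjusted p = 4.3e-05). Mitosis genes had medians of -0.62, -2.33 and -2.79, and their fall was steeper than the preceding change in 31 of 39. Against the following step, 13 fell less from 12 h to 24 h and 3 fell more, namely Mad2l1, Foxm1 and Mybl2. Mki67 had 3 h signals of 10078 and 10659 and 48 h signals of 69.6 and 78.0, and its change in the step lay above the following one by 1.76 ± 0.16 (adjusted p = 4.3e-04). Ccna2, the cyclin of S phase and early mitosis, fell by 2.54 ± 0.08 and had 24 h signals of 679 and 706 and 48 h signals of 57.9 and 58.6.

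**Figure D4:**
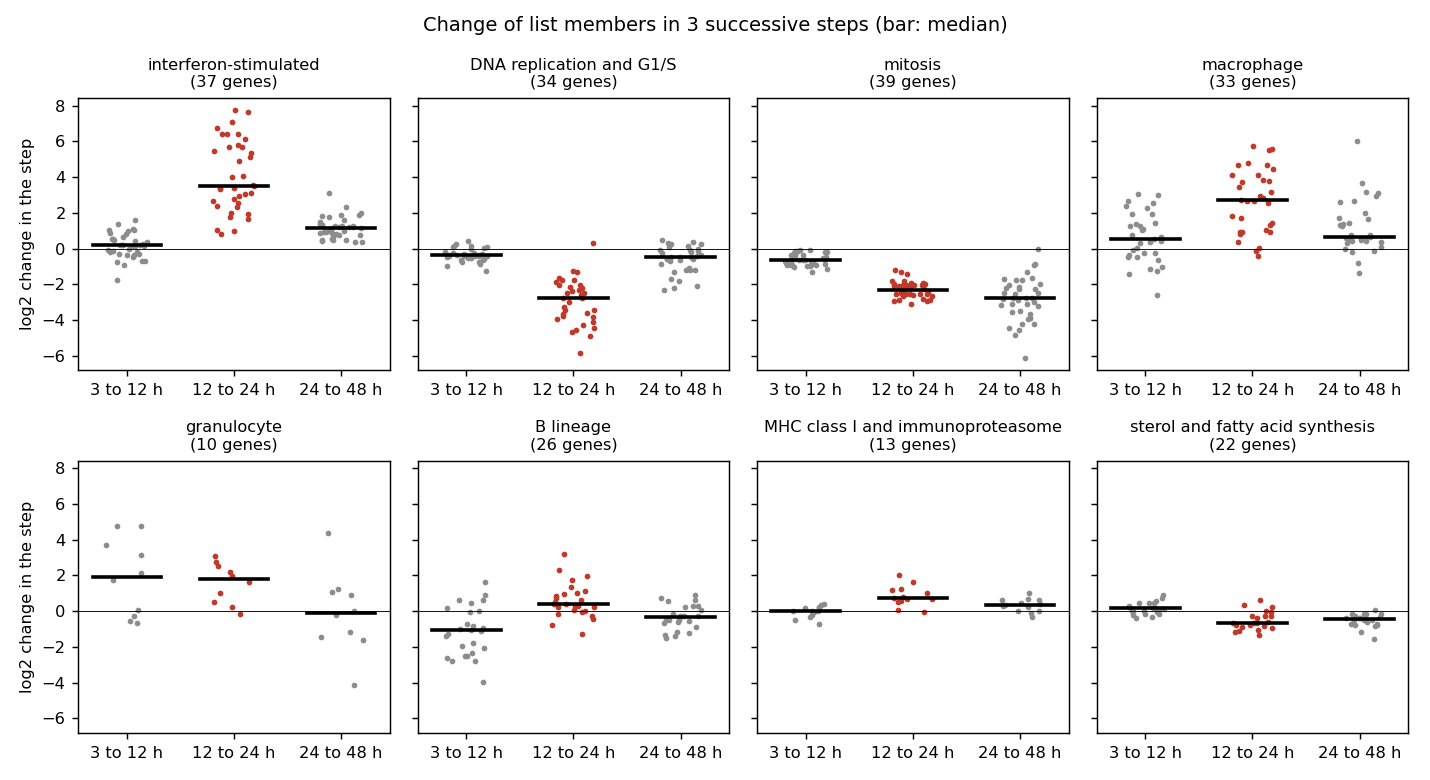
Log2 change of each tested member of 8 gene lists in the steps from 3 h to 12 h, 12 h to 24 h (red) and 24 h to 48 h, with the median as a bar. The interferon-stimulated list is near 0 in the first step (median 0.18) and high in the second (3.51), and the mitosis list is below 0 from 12 h to 24 h (-2.33) and from 24 h to 48 h (-2.79).

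Macrophage genes had medians of 0.55, 2.69 and 0.66 in the 3 steps, and in 18 of 33 the change in this step lay above the preceding one, and in 1, Plaur, below it. Members differed in when they rose. Lyz2 had 3 h signals of 555 and 561 and 48 h signals of 36647 and 35696, and its change in the step did not differ from the preceding one in the test (difference -0.06 ± 0.24, adjusted p = 0.88). Cd68, a lysosomal glycoprotein, was lower at 12 h than at 3 h, with signals of 294 and 261 at 3 h, of 145 and 127 at 12 h, of 1899 and 1761 at 24 h and of 2804 and 3324 at 48 h. Its step exceeded the preceding one by 4.78 ± 0.21 (adjusted p = 1.3e-05). Granulocyte genes had medians of 1.92, 1.79 and -0.08. Camp had signals of 65.0 and 74.6 at 3 h, of 969 and 879 at 12 h, of 8451 and 7538 at 24 h and of 2624 and 2561 at 48 h, a rise in the step that exceeded the following change by 4.73 ± 0.16 (adjusted p = 1.1e-05).

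Some B lineage and MHC class II genes had lower signals at 12 h than at both 3 h and 24 h. The B lineage list had medians of -1.07, 0.41 and -0.31 in the 3 steps, with 4 rising and 16 falling from 3 h to 12 h. In 15 of 26 the step from 12 h to 24 h lay above the preceding one, and in 2 below it. Cd37, a tetraspanin of mature B cells and other leukocytes, had signals of 7326 and 7913 at 3 h, of 1262 and 1424 at 12 h, of 3359 and 3591 at 24 h and of 2237 and 2646 at 48 h. Its step exceeded the preceding one by 3.88 ± 0.18 (adjusted p = 1.3e-05). Cd2 had 471 and 513 at 3 h, and its step exceeded the preceding one by 4.64 ± 0.18 (adjusted p = 7.0e-06). MHC class II genes had medians of -1.29, 1.39 and 0.45, with 0 rising and 7 falling from 3 h to 12 h. Cd74 had signals of 3310.0 and 3374 at 3 h, of 1136 and 1194 at 12 h, of 13709.7 and 13856 at 24 h and of 28049 and 28323 at 48 h, and its step exceeded the preceding one by 5.09 ± 0.13 (adjusted p = 1.9e-06). Spi1 had 3 h signals of 2889 and 2782 and 48 h signals of 5274 and 5580.1, and its rise of 0.99 ± 0.09 belonged to the step from 3 h to 12 h (adjusted p = 2.3e-04).

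Markers of other cell types were mostly dim. Among T and NK cell markers 14 had a probe set and 5 were tested, of which Cd5 rose, by 1.79 ± 0.14 with 1033 and 982 at 24 h, against 281 and 303 at 12 h, a call lost under spike-in scaling, and 0 fell. Their summed signal was 2025 and 1469 at 24 h, against 1185 and 1120 at 12 h. Cd3e was at the floor in both 12 h arrays and 1 of the 24 h arrays, and Cd3g and Ncr1 did not pass the filter either. Erythroid and megakaryocyte markers had a summed signal of 2331 and 2265 at 24 h, against 3142 and 2971 at 12 h, with Hba-a1 and Klf1 not passing the filter, and of 5 tested 0 rose and 2 fell, Gata1 and Tfrc. Gata1 had 25.2 and 28.4 at 24 h, against 74.8 and 56.1 at 12 h, and with 1 of its 12 h arrays under the level its change of -1.27 ± 0.30 is uncertain. Its call was lost without the first 24 h array. Dendritic cell markers had a summed signal of 8167 and 8258 at 24 h, against 3004 and 2933 at 12 h, and of 6 tested Bst2, Itgax and Tcf4 rose and 0 fell. The call of Tcf4, at 0.43 ± 0.10, was lost without the second 24 h array, and Itgax had 1 dim 12 h array. Bst2, tetherin, is also in the interferon-stimulated list. Siglecf rose in the mast cell, basophil and eosinophil list (2 tested, with a summed signal of 401 and 397 at 24 h, against 321 and 331 at 12 h), and Pdgfrb in the stroma and endothelium list (5 tested, with a summed signal of 742 and 989 at 24 h, against 689 and 632 at 12 h). The part of other cells in the results above was not tested. Of 10 housekeeping genes 1 rose and 3 fell, with a median of -0.14, and 0 were called under spike-in scaling. The changes were -0.78 ± 0.06 for Hprt, -0.94 ± 0.08 for Tubb5 and -0.58 ± 0.13 for Tbp, whose call was lost without the second 24 h array, and Gusb, a lysosomal enzyme, rose by 1.04 ± 0.07.

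**Figure D5:**
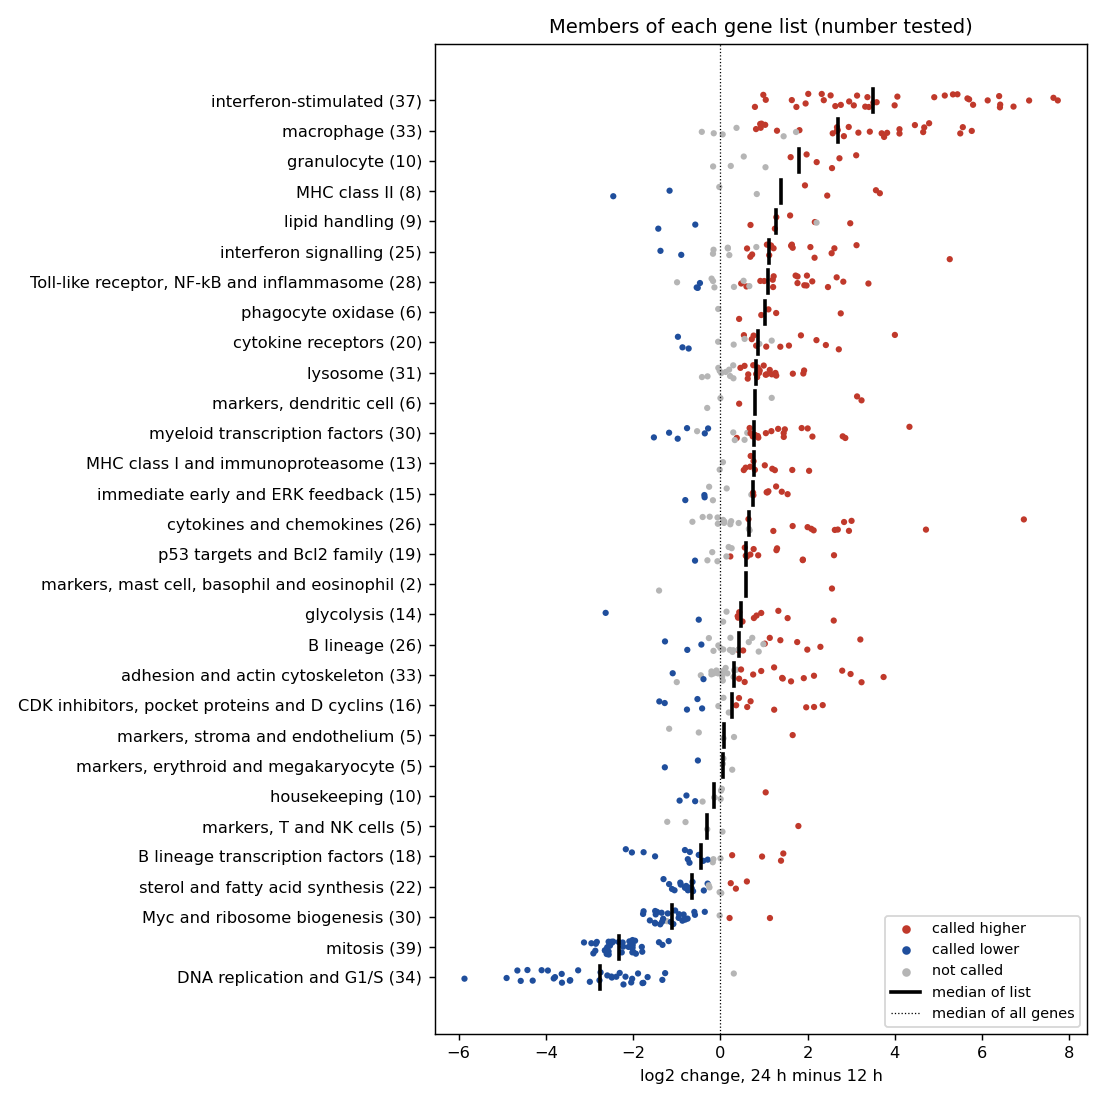
Each point is a tested member of a gene list, with its log2 change, 24 h minus 12 h, on the x axis, red where called higher, blue where called lower and grey where not called, and bars mark list medians. Interferon-stimulated genes (median 3.51) and macrophage genes (2.69) lie at the top, mitosis (-2.33) and DNA replication genes (-2.76) at the bottom.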

How the data were processed

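RNA of 12 samples, 2 of each of 6 conditions, was measured on one-colour mouse Affymetrix arrays after Trizol extraction and biotin labelling, per the labels' protocols. The authors deposited linear intensities for 45101 probe sets, and the 2% trimmed mean of every deposited array was 500. How the authors summarised probes is not given in the sources used here. Deposited intensities were taken to log2, quantile-normalised over all probe sets of the 12 arrays and given a floor of 16 in R 4.3.3. The 64 control probe sets were left out after that. Of the 34945 probe sets annotated to 1 gene, the brightest per gene on average was kept. Other probe sets of a gene did not always pass when tested on their own. Among named genes, 1 of 2 was called for Irf5, Cebpd, Fosl2, Capg, Abca1, Ctsa, Ikzf3, Pfkfb3, Fignl1 and Cdkn1a, for example. Genes above the median signal in at least 2 of 12 arrays were tested, 11696 of 18193.

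All 12 arrays entered 1 limma fit (3.58.1) without a replicate block, with 6 residual degrees of freedom. Every adjusted p is from limma's moderated test, two-sided, after Benjamini-Hochberg adjustment over all genes tested. The steps and their differences were contrasts of that fit. The number of arrays limits the precision. Same-numbered 24 h and 12 h samples did not deviate together (correlation 2e-04), so the numbers were not taken to pair them. Alternatives were spike-in scaling, other normalisations and filters, every probe set on its own, a minimum change, a fit of the 4 arrays alone, a replicate block and each array left out.

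The members and gene lists were chosen with earlier results of these data known. Named were the 12 largest rises and falls among fully measured called genes, the 8 largest bounds each way, up to 6 members per list by size of change and a set of well-known genes. Genes that complete a count of 5 or fewer, listed genes under the filter and Ccna2, Cd68, Cd79a, Foxm1, Gbp3, Gfi1, Ifi47, Mcm4, Mcm6, Ngp, Plaur, Pttg1, Rela, Traf6 and Trim21 were named after their values were seen. Promoter windows are from RefSeq for GRCm38.p6, and no other coordinates were used.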

Additional observations from a re-analysis of the deposited data

Results flagged for a closer look

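Among probe sets that the platform annotation used here gives no gene, 3977 passed the filter, and 466 were higher and 389 lower at 24 h than at 12 h when every probe set was tested on its own (limma, Benjamini-Hochberg adjustment over 26524 probe sets). That is 21.5% called, against 34.6% of all probe sets. They are singled out because their change is large while no comparison of gene lists uses them. Probe set 1420915_at had 2698 and 2585 at 24 h, against 166 and 137 at 12 h, a change of 4.13 ± 0.16 (adjusted p = 3.0e-06). Probe set 1450034_at had 6538 and 6731 at 24 h, against 397 and 411 at 12 h, a change of 4.04 ± 0.09 (adjusted p = 4.2e-07). In both, the 24 h arrays lay far above the 12 h arrays. Probe set 1419172_at had 295 and 255 at 24 h, against 2173 and 1948 at 12 h, a change of -2.91 ± 0.12 (adjusted p = 3.4e-06). Probe set 1444676_at had 97.2 and 132 at 24 h, against 719 and 786 at 12 h, a change of -2.73 ± 0.18 (adjusted p = 2.8e-05). In this pair the 24 h arrays lay below the 12 h arrays.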

How the results depend on the processing

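The list counts under each alternative were added after seeing the data. Scaled to the spike-in probe sets, 501 genes were higher and 1151 lower, 501 were higher by 2-fold or more, and the step differed from the preceding one in 350 genes and from the following one in 206. Of 222 named genes, 171 kept their side of the threshold under this scaling, 47 lost the call and 3 gained one, and Myc, called without it, reversed, to -0.22. Of the 171, 10 changed sign, being called under neither scaling. With every probe set on its own, 4369 were higher and 4801 lower, 1961 and 1833 by 2-fold or more. With a minimum log2 change of 1 under test, 472 genes were higher and 389 lower, also counted by 2-fold or more, and the step differed from the preceding one in 484 and from the following one in 285. With 1 of the 4 arrays left out, 2033 to 2161 genes were higher and 2135 to 2283 lower, where the lone array of a group was assumed to vary like the others. The step then differed from the preceding one in 1613 to 2354 genes and from the following one in 1368 to 2112, both low counts being those without an array shared by the steps compared. The cause of these shifts was not tested. No value exists for the differences between steps when 4 arrays alone are fitted.

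With a replicate block, 2569 genes were higher and 2643 lower, and 5096 of the 5313 calls were kept, although the pairing by number is not borne out (correlation 2e-04). Dim probe sets limit what can be said of 629 genes at or under the filter level in all 4 arrays.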
